A study of Homo sapiens with 16 samples.

Results

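The genes that make sterols and fatty acids were followed in 4 human T-cell leukaemia lines with and without an inhibitor of CDK4 and CDK6. The set is a list of 33 gene names, and a member was measured where the platform annotation gave it a probe set with exactly 1 gene symbol. That held for 30 members, of 19775 genes with such a probe set, and all 30 were bright enough in at least 1 line to be tested. FDFT1, CYP51A1 and FADS1 had no probe set of that kind and are not analysed here. The 30 measured members are 17 enzymes of sterol synthesis, 7 genes of fatty acid and glyceride synthesis, 3 regulators (SREBF1, SREBF2 and INSIG1) and 3 genes of sterol transport and export (STARD4, ABCA1 and ABCG1).

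The lines CEM, CUTL1, DND41 and Jurkat are established lines of T-cell acute lymphoblastic leukaemia, and no added allele is given for any of them in the labels. Each was exposed for 15 h to the solvent DMSO or to 1 uM PD-0332991, and all groups were grown in the same medium with serum. PD-0332991 is palbociclib, which blocks the kinases CDK4 and CDK6 that phosphorylate RB with D-type cyclins. Each of the 8 groups had 2 Affymetrix Human Genome U133 Plus 2.0 arrays, 16 in all. Whether the arrays of a group stand for separate cultures is not said in the labels, and the p-values below cover the scatter of these arrays, possibly technical, and nothing wider. A line is 1 leukaemia and stands for no other patient.

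Cells build cholesterol from acetyl-CoA through the mevalonate pathway, which ends in farnesyl diphosphate, and then through squalene, lanosterol and a series of sterol intermediates. Fatty acids are built from the same acetyl-CoA by carboxylation, chain synthesis, elongation and desaturation. SREBP-2 and SREBP-1, encoded by SREBF2 and SREBF1, switch on most of these genes when membrane sterol is low, and INSIG1 holds SREBP in the endoplasmic reticulum when sterol is plentiful. Oxysterols act in the other direction through the nuclear receptor LXR, which turns on the export pumps ABCA1 and ABCG1.

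Array medians lay between 28.5 and 31.2 on the linear intensity scale, and the correlation of the 2 arrays of a group ranged from 0.993 to 0.998 over the 13483 genes tested. The 6 genes MCM2 to MCM7, replication helicase subunits that rise as cells enter S phase, fell by 1.18 to 3.08 (log2) across the 4 lines. All 8 T-cell markers were above the level called dim (4.88 on the log2 scale) in every group, and 7 of the 8 rose in the average effect. Of 22 measured markers of B, myeloid, erythroid, epithelial, stromal, fat and liver cells, 14 were dim in every group and 6 in none, among them CD79A, a B-cell marker that read 7.43 to 11.01, and COL1A1, at 7.43 to 7.94. Of the tested ones, CD79A (0.25, adjusted p = 0.00411) and the near-dim erythroid marker ALAS2 (0.25, adjusted p = 0.00813) rose in the average, and their part in the results was not tested. The 18S ribosomal RNA control read 13.28 and 13.17 in CUTL1 with DMSO against 12.80 and 12.67 with PD-0332991, and 13.21 and 13.26 against 12.45 and 12.75 in DND41, without overlap. Its part in the results in those lines was not tested. In a bulk sample, fewer cells of a kind and less RNA per cell cannot be told apart, and an array reads each gene relative to the rest of the RNA.

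In answer to the first question of the design, what PD-0332991 did over all lines, the members moved in both directions. The early enzyme ACAT2, the sterol isomerase EBP and the prenyl synthase FDPS were lower in all 4 lines, and the ketone-body enzyme AACS, the sterol reductase TM7SF2 and the phosphatidate phosphatase LPIN1 were higher in all 4. In the average of the 4 PD-0332991 minus DMSO differences, 6 of 30 members rose and 9 fell at an adjusted p under 0.05 (limma, Benjamini-Hochberg over 13483 genes), and 15 did not pass. Over all genes tested 26.7% rose and 20.0% fell, 46.6% in either direction, so the members' share called (50%) was close to the background. Their median difference was -0.01 on the log2 scale, beside 0.04 over all genes. Without CEM DMSO replicate 1, or without Jurkat PD-0332991 replicate 1, 5 members fell in place of 9.

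Among the 17 sterol enzymes 3 rose (17.6%) and 7 fell (41.2%), with a median of -0.08. Of the 7 fatty acid genes 1 rose, LPIN1, and 1 fell, FADS2 (14.3% each). Beside both stand the 26.7% and 20.0% of all genes, and a difference from these shares was not tested. The regulators INSIG1 (0.15), SREBF2 (0.06) and SREBF1 (-0.01) did not pass. The export pump ABCG1 rose and STARD4 fell. The other pump, ABCA1, passed with a higher average but was above the dim level in CUTL1 alone. For HMGCS1, MVK and SCD, 3 members not called here, another probe set of the gene was called lower in the average. The average was called with 1 sign in all 4 lines for 5 rises (AACS, TM7SF2, SC5D, LPIN1 and ABCG1) and 8 falls (ACAT2, EBP, FDPS, IDI1, PMVK, SQLE, HSD17B7 and STARD4), where the background was 18.9% and 15.8%. Called in each of the 4 lines separately were 3 rises and 3 falls of 30 members, beside 3.65% and 5.65% of all genes. Both treated arrays lay above both control arrays for 6 members in CEM, 14 in CUTL1, 10 in DND41 and 12 in Jurkat. Over all 13483 genes these counts were 4766, 5052, 4269 and 5202. They lay below for 12, 9, 14 and 10 members, beside 3970, 3412, 4429 and 3404 genes. Such separation in a line was thus common, and genes separated in all 4 lines were not counted.

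**Figure D1:**
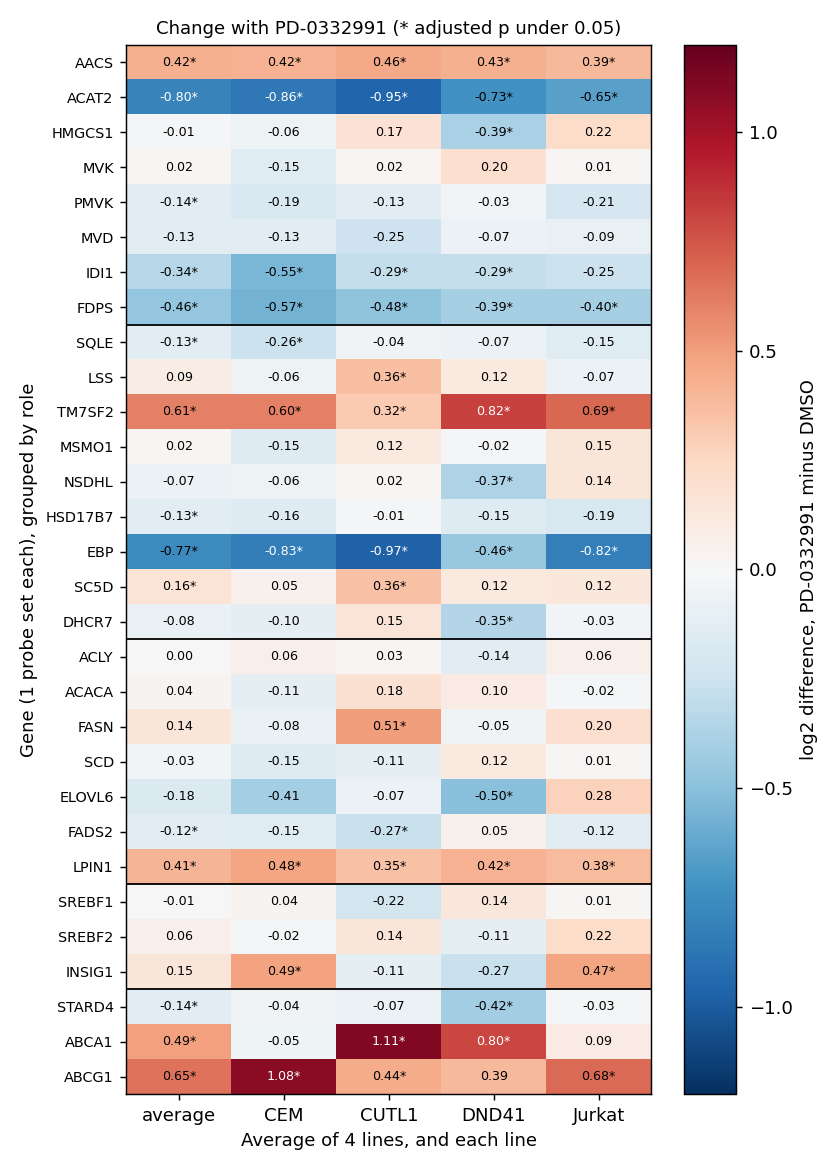
Differences between PD-0332991 and DMSO (log2 intensity) for the 30 measured members, in rows grouped by role (mevalonate pathway, squalene to cholesterol, fatty acid genes, regulators, transport), with the average of the 4 lines in the first column and each line in the others. An asterisk marks an adjusted p under 0.05; ACAT2, FDPS and EBP are blue and AACS, TM7SF2 and LPIN1 red in every column, while HMGCS1, NSDHL, DHCR7, INSIG1 and ABCA1 differ in colour or depth between lines.

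The mevalonate pathway opens with ACAT2, the cytosolic thiolase that joins acetyl-CoA units into acetoacetyl-CoA. ACAT2 read (log2 intensity) 10.98 and 10.88 in CEM, 10.25 and 10.41 in CUTL1, 11.36 and 11.40 in DND41 and 10.92 and 10.90 in Jurkat with DMSO. Under PD-0332991 the arrays read 10.12 and 10.02 in CEM, 9.28 and 9.47 in CUTL1, 10.56 and 10.74 in DND41 and 10.29 and 10.23 in Jurkat. Both treated arrays lay below both control arrays in each line. The fall was 0.80 in the average (SE 0.045, 1.74-fold, adjusted p = 5.53e-08), between 0.65 in Jurkat and 0.95 in CUTL1, and the joint test of the 4 changes did not separate the lines (adjusted p = 0.297).

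AACS, which makes the same product from acetoacetate, went the other way. Its DMSO arrays read 8.33 and 8.30 in CEM, 6.76 and 7.11 in CUTL1, 7.74 and 7.73 in DND41 and 8.07 and 8.18 in Jurkat. The PD-0332991 arrays read 8.76 and 8.71 in CEM, 7.31 and 7.48 in CUTL1, 8.12 and 8.21 in DND41 and 8.47 and 8.55 in Jurkat. All 8 treated arrays were above the control arrays of their line. AACS rose by 0.42 in the average (SE 0.053, 1.34-fold, adjusted p = 3.90e-05), and its rises of 0.39 to 0.46 in the single lines were all called. In each line the call was lost when 1 of 2 arrays (3 in Jurkat) of that line was left out, with adjusted p-values of up to 0.110.

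HMGCS1, the synthase that makes HMG-CoA and a standard SREBP-2 target, did not pass in the average (-0.01, SE 0.053, adjusted p = 0.852) on the probe set used. A second, dimmer HMGCS1 probe set fell by 0.21 in the average (adjusted p over all probe sets 0.00578), with CUTL1 at -0.13 and Jurkat at -0.04, so the probe sets differed. Of the kinases and the decarboxylase that follow, the average of MVK was 0.02 (SE 0.053) and that of MVD -0.13 (SE 0.084), and neither passed. A dimmer MVK probe set fell by 0.24 (adjusted p over all probe sets 0.0156), and MVK's other 2 probe sets were not called. PMVK fell by 0.14 (SE 0.046, adjusted p = 0.0288) and was called in no line. Its arrays read 9.64 and 9.52 in CEM, 9.33 and 9.47 in CUTL1, 9.81 and 9.78 in DND41 and 9.97 and 9.75 in Jurkat with DMSO. They read 9.31 and 9.48 in CEM, 9.22 and 9.33 in CUTL1, 9.75 and 9.77 in DND41 and 9.63 and 9.68 in Jurkat with PD-0332991, so the groups did not overlap in any line but lay close together. The fall of PMVK was lost when any 1 of 7 arrays was left out, with adjusted p-values of up to 0.0708.

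IDI1, which interconverts the isoprenoid building blocks, read 11.29 and 11.17 in CEM, 10.44 and 10.56 in CUTL1, 11.23 and 11.37 in DND41 and 11.10 and 11.02 in Jurkat with DMSO. With the drug it read 10.67 and 10.70 in CEM, 10.30 and 10.12 in CUTL1, 11.08 and 10.94 in DND41 and 10.83 and 10.77 in Jurkat. Treated arrays were below control arrays in each line. The average fall of 0.34 (SE 0.045, adjusted p = 5.47e-05) was called in CEM (0.55), CUTL1 (0.29) and DND41 (0.29), while Jurkat stood at -0.25 (adjusted p = 0.0556). A second IDI1 probe set of the same kind, which can also bind related transcripts, fell by 0.35 in the average. The only other bright IDI1 probe set was at 0.07 in the average, not called, and at 0.29 in DND41 (adjusted p over all probe sets 0.0409). A dim one was at -0.14. The calls in CUTL1 and in DND41 were each lost without either of 2 arrays of that line, with adjusted p-values of up to 0.236.

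FDPS joins these units into farnesyl diphosphate, from which squalene, dolichol, ubiquinone and protein prenyl groups are made. Its values with DMSO were 12.50 and 12.39 in CEM, 11.37 and 11.58 in CUTL1, 12.27 and 12.27 in DND41 and 12.35 and 12.37 in Jurkat. With PD-0332991 they were 11.88 and 11.88 in CEM, 11.02 and 10.96 in CUTL1, 11.83 and 11.93 in DND41 and 11.9984 and 11.93 in Jurkat. No treated array reached a control array of its line. FDPS fell by 0.46 in the average (SE 0.040, 1.38-fold, adjusted p = 1.93e-06), from 0.39 in DND41 to 0.57 in CEM, and all 4 lines were called. The joint test did not separate these falls (adjusted p = 0.531).

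From squalene on, the largest fall was that of EBP, the isomerase that moves the ring double bond of the sterol. EBP read 11.01 and 10.90 in CEM, 10.51 and 10.49 in CUTL1, 10.47 and 10.50 in DND41 and 10.70 and 10.65 in Jurkat with DMSO. The treated arrays read 10.16 and 10.09 in CEM, 9.50 and 9.55 in CUTL1, 10.07 and 9.99 in DND41 and 9.86 and 9.85 in Jurkat. The control and treated arrays were apart in every line. The average fall was 0.77 (SE 0.032, 1.70-fold, adjusted p = 3.60e-09). A second EBP probe set fell by 0.77 in the average and between 0.70 and 0.89 in the lines. A dimmer one fell by 0.54 in the average (adjusted p over all probe sets 0.00185), and the dimmest was at -0.02, not called.

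TM7SF2, a sterol reductase that acts just after lanosterol loses its first methyl group, rose where EBP fell. TM7SF2 arrays with DMSO read 7.09 and 6.88 in CEM, 6.72 and 6.57 in CUTL1, 6.83 and 6.74 in DND41 and 7.46 and 7.64 in Jurkat. Those with PD-0332991 read 7.57 and 7.61 in CEM, 7.02 and 6.91 in CUTL1, 7.75 and 7.48 in DND41 and 8.22 and 8.26 in Jurkat. The treated arrays were above the control arrays in each line, by most in DND41. The average rise was 0.61 (SE 0.054, 1.52-fold, adjusted p = 2.63e-06), and the rises were 0.60 in CEM, 0.82 in DND41 and 0.69 in Jurkat. The rise of 0.32 in CUTL1 (adjusted p = 0.0490) was lost when any 1 of 10 arrays was left out, with adjusted p-values of up to 0.238.

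SC5D, the desaturase near the end of the pathway, read 9.06 and 9.09 in CEM, 7.79 and 7.84 in CUTL1, 9.37 and 9.47 in DND41 and 9.03 and 9.04 in Jurkat with DMSO. In PD-0332991 the readings were 9.12 and 9.12 in CEM, 8.17 and 8.17 in CUTL1, 9.48 and 9.59 in DND41 and 9.13 and 9.19 in Jurkat. CUTL1 had the lowest level and the clearest rise, which share the same DMSO arrays and so are not independent. SC5D rose by 0.16 in the average (SE 0.032, adjusted p = 0.00154), but of the single lines CUTL1 was the one called (0.36, SE 0.065, adjusted p = 0.00169), and without that line the average was 0.10 (adjusted p = 0.0865).

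SQLE, squalene epoxidase and a rate-setting step, read 10.35 and 10.38 in CEM, 9.77 and 9.93 in CUTL1, 11.16 and 11.08 in DND41 and 10.80 and 10.74 in Jurkat with DMSO. With the drug it read 10.11 and 10.11 in CEM, 9.82 and 9.80 in CUTL1, 11.08 and 11.03 in DND41 and 10.71 and 10.54 in Jurkat. The groups were apart in CEM, DND41 and Jurkat and overlapped in CUTL1. The average fall of 0.13 (SE 0.039, adjusted p = 0.0176) came with a called fall of 0.26 in CEM, and without the line CEM it was 0.08 (adjusted p = 0.211). The call in CEM was lost when any 1 of the 4 CEM arrays was left out, with adjusted p-values of up to 0.121. Dimmer SQLE probe sets gave larger falls that were also called outside CEM, with differing line patterns. One fell by 0.33 in the average (adjusted p over all probe sets 0.00219), by 0.48 in CEM and by 0.55 in Jurkat (0.0136). Another fell by 0.30 in the average (0.00161), by 0.42 in CEM and by 0.47 in DND41 (0.0152). The dimmest fell by 0.99 in DND41 (0.00179) and was at 0.07 in CEM, 0.05 in CUTL1 and 0.05 in Jurkat. Its average of -0.20 was not called (0.0747).

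HSD17B7, a ketosteroid reductase of the demethylation steps, read 9.20 and 9.21 in CEM, 9.05 and 9.04 in CUTL1, 9.73 and 9.79 in DND41 and 9.43 and 9.63 in Jurkat with DMSO. With PD-0332991 it read 9.08 and 9.02 in CEM, 9.09 and 8.97 in CUTL1, 9.73 and 9.48 in DND41 and 9.36 and 9.32 in Jurkat. Control and treated arrays overlapped in CUTL1 and DND41. Its average fall of 0.13 (SE 0.046, adjusted p = 0.0375) was called in no line and was lost when any 1 of 12 arrays was left out, with adjusted p-values of up to 0.0896. MSMO1, an oxidase of the same steps, was at 0.02 in the average and was called in no line.

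**Figure D2:**
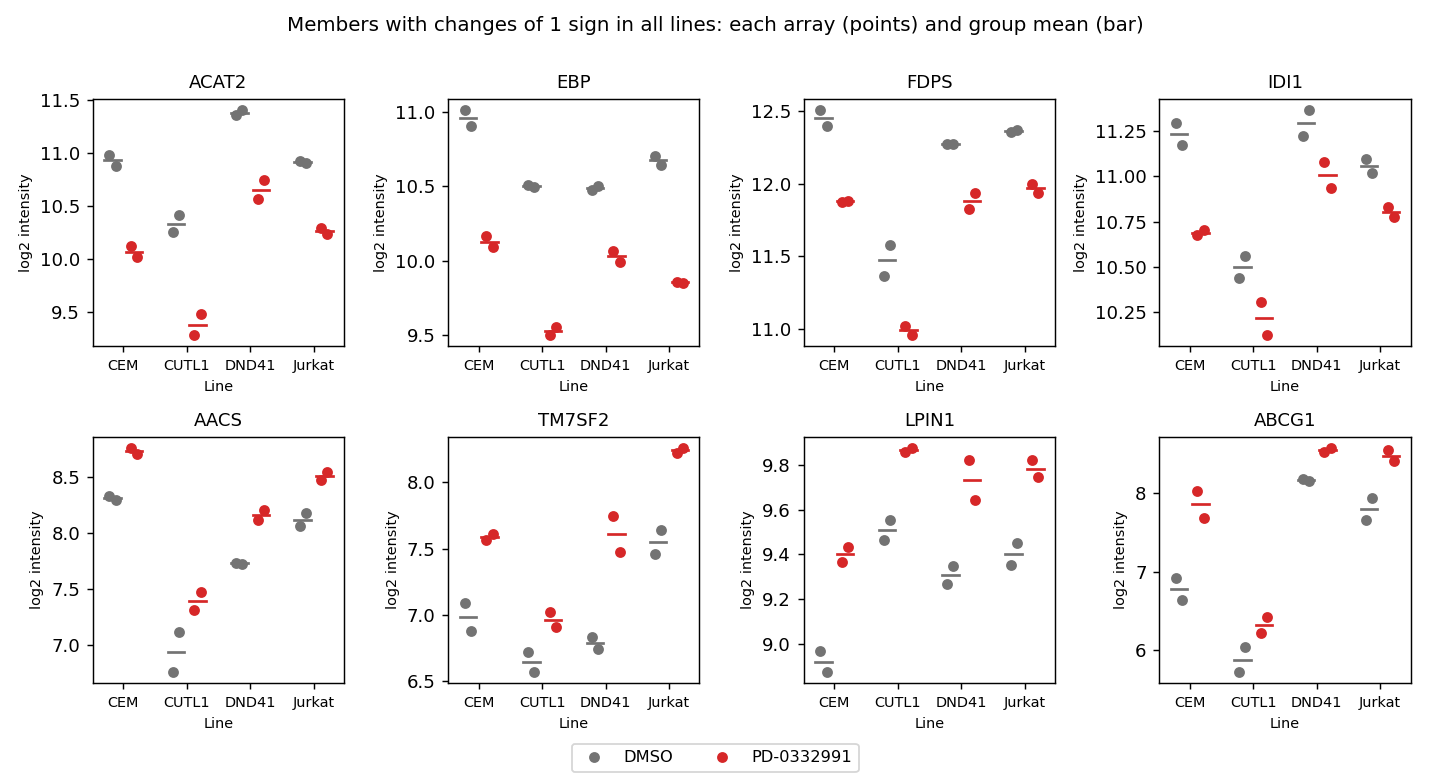
Log2 intensity (vertical axis, a separate scale for each gene) of 8 members in CEM, CUTL1, DND41 and Jurkat, with grey points for the 2 DMSO arrays, red points for the 2 PD-0332991 arrays and bars for the group means. ACAT2, EBP, FDPS and IDI1 in the upper row read lower, and AACS, TM7SF2, LPIN1 and ABCG1 in the lower row higher, in both treated arrays of each line.

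The promoters of EBP, FDPS and TM7SF2 are shown because these enzymes of 1 pathway moved in every line, the first pair down and the last one up. Each is the stretch of 250 bases before the RefSeq start on the + strand of GRCh38.p14, with the box CCAAT or its reverse complement ATTGG in capitals.
EBP, chrX:48521558-48521807: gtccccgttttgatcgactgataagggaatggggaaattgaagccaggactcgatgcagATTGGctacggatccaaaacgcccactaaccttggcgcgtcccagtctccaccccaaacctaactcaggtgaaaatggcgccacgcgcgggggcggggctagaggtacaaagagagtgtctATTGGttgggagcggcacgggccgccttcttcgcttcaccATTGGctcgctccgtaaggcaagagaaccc
FDPS, chr1:155308616-155308865: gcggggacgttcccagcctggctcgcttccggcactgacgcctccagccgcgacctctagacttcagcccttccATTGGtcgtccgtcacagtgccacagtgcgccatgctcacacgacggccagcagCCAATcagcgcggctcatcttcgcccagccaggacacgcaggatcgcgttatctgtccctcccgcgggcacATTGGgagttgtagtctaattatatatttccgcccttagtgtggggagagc
TM7SF2, chr11:65111622-65111871: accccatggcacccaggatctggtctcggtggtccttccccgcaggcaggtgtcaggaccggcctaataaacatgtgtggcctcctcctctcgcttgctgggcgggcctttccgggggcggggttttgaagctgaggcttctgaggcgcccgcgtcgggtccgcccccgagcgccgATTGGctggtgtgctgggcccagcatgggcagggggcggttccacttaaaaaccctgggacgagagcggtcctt
The first pair holds 3 boxes each and TM7SF2 holds 1. Elsewhere in the sterol list, PMVK, which fell, and AACS, which rose, hold 0 each. MVK, MSMO1 and MVD, not called in the average on the probe sets used, hold 5, 4 and 3. A link between the number of boxes and the change was not tested. CCAAT is the box bound by NF-Y, a factor known to act beside SREBP.

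RefSeq windows matched 26 of the 30 measured members, and these had 37 windows, since some genes have several starts. ACAT2, SQLE, FASN and ABCG1 had none. CCAAT on either strand was in 23 of the 37 windows, beside 32.0% of 35116 windows of all genes. For the sterol enzymes it was in 15 of 20 windows, from 13 of 15 genes, and for the fatty acid genes in 5 of 12. The GC box GGGCGG on either strand, bound by Sp1, was in 32 of 37 windows and in 42.6% of all. One spelling of the sterol element, TCACNCCAC on either strand, was in the SREBF2 window alone among the members and in 0.883% of all. E2F spellings were rare: TTTGGCGC was in 1 ACACA window (0.550% of all), TTTCCCGC in the MVK window (1.39% of all) and TTTCGCGC in no member window (0.439% of all), each searched on both strands. The motifs were counted separately, with no correction for shared bases, and a match is a description of letters in the window. The windows of all genes were not limited to the genes tested, whereas every member was tested.

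Among the genes of fatty acid synthesis, ACLY, ACACA and SCD did not pass the test in the average or in any line on the probe sets used. ACLY, the citrate lyase that supplies acetyl-CoA, was at 0.0024 in the average (SE 0.032) and between -0.14 and 0.06 in the lines, none called. ACACA, the carboxylase that commits carbon to fatty acids, was at 0.04 (SE 0.055). SCD, the desaturase that makes oleate, was at -0.03 (SE 0.035). The 95% intervals of the averages ran from -0.07 to 0.07 for ACLY, from -0.08 to 0.16 for ACACA and from -0.11 to 0.04 for SCD. They cover the probe set used alone. A second SCD probe set, with a mean of 8.18 beside 10.89, fell by 0.26 in the average (adjusted p over all probe sets 0.00502) and by 0.68 in CUTL1 (0.00179), where the one used was at -0.11. The other SCD probe sets were at -0.13 and -0.20 in the average, not called.

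FASN, the fatty acid synthase, rose in CUTL1 by 0.51 (SE 0.115, adjusted p = 0.00666) and was at -0.08 in CEM, -0.05 in DND41 and 0.20 in Jurkat. The joint test did not separate these changes (adjusted p = 0.0755), and the call in CUTL1 was lost without CUTL1 DMSO replicate 1 or PD-0332991 replicate 2 (adjusted p of up to 0.0703). A second FASN probe set, near the dim level with a mean of 4.89, was at -0.13 in CUTL1 (adjusted p over all probe sets 0.631). It was called in no line. ELOVL6, which lengthens palmitate, fell in DND41 by 0.50 (SE 0.166, adjusted p = 0.0422), with -0.41 in CEM and 0.28 in Jurkat. That call was lost when any 1 of 7 arrays was left out, with adjusted p-values of up to 0.242. The dimmest ELOVL6 probe set, with a mean of 4.73, fell by 0.50 in DND41 (adjusted p over all probe sets 0.0118). It rose by 0.41 in Jurkat (0.0332) and was at -0.02 in CEM. Another ELOVL6 probe set was at -0.40 in DND41, -0.07 in CEM and 0.18 in Jurkat, called in no line. FADS2, a desaturase of polyunsaturated fatty acids, fell by 0.12 in the average (SE 0.043, adjusted p = 0.0348) and by 0.27 in CUTL1. A dimmer FADS2 probe set fell by 0.13 in the average (adjusted p over all probe sets 0.0404) and by 0.32 in DND41 (0.0225), where the one used was at 0.05. The average of FADS2 was lost when any 1 of 10 arrays was left out, with adjusted p-values of up to 0.0863, and the fall in CUTL1 when any 1 of 7 was, with adjusted p-values of up to 0.257.

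LPIN1 was the 1 fatty acid gene called in all lines. It makes diacylglycerol from phosphatidate, the step that leads to triglycerides, and is also known as a nuclear regulator of lipid genes. LPIN1 read 8.97 and 8.87 in CEM, 9.47 and 9.55 in CUTL1, 9.27 and 9.35 in DND41 and 9.35 and 9.45 in Jurkat with DMSO. Under PD-0332991 the arrays read 9.36 and 9.44 in CEM, 9.86 and 9.88 in CUTL1, 9.82 and 9.64 in DND41 and 9.82 and 9.74 in Jurkat. Treated arrays lay above control arrays in each line. The average rise was 0.41 (SE 0.039, 1.33-fold, adjusted p = 5.19e-06), with 0.48 in CEM, 0.35 in CUTL1, 0.42 in DND41 and 0.38 in Jurkat. A second LPIN1 probe set rose by 0.38 in the average and was not called in DND41 (0.23, adjusted p over all probe sets 0.0702).

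The regulators SREBF1 and SREBF2 were called in no line on the probe sets used. SREBF1 was at -0.01 in the average (SE 0.043, 95% interval -0.10 to 0.09) and SREBF2 at 0.06 (SE 0.049, 95% interval -0.05 to 0.17). In CUTL1 SREBF1 was at -0.22 (adjusted p = 0.0816), and in Jurkat SREBF2 was at 0.22 (adjusted p = 0.132). Dimmer SREBF2 probe sets went other ways: one fell by 0.40 in Jurkat (adjusted p over all probe sets 0.0454), and another rose by 0.51 in DND41 (0.0489). Neither was called in the average, so SREBF2 has no settled direction in Jurkat or DND41. The array reads their transcripts, and SREBP is set largely by cleavage of the protein, which was not measured.

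ABCG1, an export pump, rose in the average. It read 6.92 and 6.64 in CEM, 5.72 and 6.04 in CUTL1, 8.18 and 8.15 in DND41 and 7.65 and 7.93 in Jurkat with DMSO. The treated arrays read 8.03 and 7.68 in CEM, 6.21 and 6.43 in CUTL1, 8.53 and 8.58 in DND41 and 8.54 and 8.41 in Jurkat. Treated arrays were above control arrays in each line. Its average rise was 0.65 (SE 0.075, 1.57-fold, adjusted p = 2.26e-05), and it was 1.08 in CEM, 0.44 in CUTL1 and 0.68 in Jurkat. DND41 stood at 0.39 (adjusted p = 0.0744), and the joint test did not separate the 4 changes (adjusted p = 0.109). The call in CUTL1 was lost when any 1 of 9 arrays was left out, and that in Jurkat without DMSO replicate 1 or PD-0332991 replicate 1. The other ABCG1 probe sets, all dimmer, also rose in the average, by 0.46, 0.73 and 0.52, but their lines differed. In CUTL1 they were at 0.17, -0.15 and 0.35, none called. In DND41 they were at 0.38, 0.63 and 0.82 (adjusted p over all probe sets 0.156, 0.0105 and 0.00361). In that fit the one used was not called in CUTL1 either (0.0604).

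ABCA1 read 3.27 and 3.33 in CEM, 6.05 and 6.47 in CUTL1, 3.60 and 3.48 in DND41 and 3.54 and 3.72 in Jurkat with DMSO. In PD-0332991 the readings were 3.15 and 3.35 in CEM, 7.21 and 7.52 in CUTL1, 4.68 and 4.01 in DND41 and 3.87 and 3.58 in Jurkat. CUTL1 was the line with ABCA1 above the dim level of 4.88, every array of the other lines was below it, and the gene entered the test through that line alone. In CUTL1 it rose by 1.11 (SE 0.206, 2.16-fold, adjusted p = 0.00193). The difference in DND41 passed (adjusted p = 0.0140), but both groups there were below the dim level, and no size is read from it. The average over the lines, 0.49 (SE 0.103, adjusted p = 0.00208), joins CUTL1 with 3 lines below that level. Without CUTL1 it was 0.28 and not called (adjusted p = 0.0733), so a rise of ABCA1 is read in CUTL1 alone. A second ABCA1 probe set rose by 0.83 in CUTL1. The call in DND41 was lost without either DMSO array or PD-0332991 replicate 1 of that line, with adjusted p-values of up to 0.127.

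STARD4, a carrier of sterol between membranes and an SREBP target, read 8.56 and 8.41 in CEM, 8.01 and 8.08 in CUTL1, 9.23 and 9.46 in DND41 and 8.32 and 8.54 in Jurkat with DMSO. With PD-0332991 it read 8.49 and 8.40 in CEM, 7.91 and 8.03 in CUTL1, 8.88 and 8.98 in DND41 and 8.36 and 8.45 in Jurkat. DND41 was the line in which treated and control arrays did not overlap. STARD4 fell there by 0.42 (SE 0.103, adjusted p = 0.0114), lost without DND41 DMSO replicate 2 or PD-0332991 replicate 1 (adjusted p of up to 0.110). The average fall of 0.14 (SE 0.051, adjusted p = 0.0447) was 0.05 without DND41 (adjusted p = 0.548), and it was lost when any 1 of 11 arrays was left out, with adjusted p-values of up to 0.111.

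A second question of the design is whether the lines answered alike. In CEM 5 members rose and 5 fell, beside 16.5% and 11.6% of all genes. In CUTL1 8 rose and 5 fell, beside 14.6% and 12.7%. In DND41 4 rose and 9 fell, beside 11.1% and 17.1%. In Jurkat 5 rose and 3 fell, beside 15.6% and 11.4%. Of the 17 sterol enzymes, 7 fell in DND41, 5 in CEM, 4 in CUTL1 and 3 in Jurkat, while 4 rose in CUTL1 and 2 in each other line. Both CUTL1 and DND41 also had the lower 18S control reading with the drug given above, and its part in these counts was not tested. Single arrays moved these counts: rises were 3 in CEM without PD-0332991 replicate 1, 4 and 3 in CUTL1 without DMSO replicate 1 and PD-0332991 replicate 2, and 2 in DND41 without either DMSO array. In Jurkat the rises were 2 without DMSO replicate 1, 2 without PD-0332991 replicate 1 and 3 without PD-0332991 replicate 2. The falls were 3 in CUTL1 without PD-0332991 replicate 2 and 5 in DND41 without DMSO replicate 2.

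The joint test of the 4 changes (an F test in limma) called 5 of 30 members, beside 12.6% of all genes: EBP, INSIG1, NSDHL, ABCA1 and LSS. Between pairs of lines, 4 members differed in their change between CUTL1 and DND41 and 4 between DND41 and Jurkat, beside 7.15% and 9.52% of all genes. The pairs CEM and CUTL1, and CEM and DND41, had 2 members each, beside 5.14% and 9.31%.

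INSIG1, the SREBP anchor and itself a sensitive SREBP target, read 11.31 and 11.37 in CEM, 10.55 and 10.24 in CUTL1, 12.05 and 11.98 in DND41 and 11.28 and 11.52 in Jurkat with DMSO. Under PD-0332991 the arrays read 11.89 and 11.77 in CEM, 10.40 and 10.17 in CUTL1, 11.66 and 11.84 in DND41 and 11.84 and 11.90 in Jurkat. It rose in CEM by 0.49 (SE 0.122, adjusted p = 0.0115) and in Jurkat by 0.47 (SE 0.122, adjusted p = 0.0140), with no overlap of the groups. In DND41 both treated arrays were below both control arrays, at -0.27 (adjusted p = 0.126), and in CUTL1 the groups overlapped, at -0.11. The change in CEM exceeded that in DND41 by 0.75 (SE 0.17, adjusted p = 0.0273), and that in Jurkat did by 0.74 (SE 0.17, adjusted p = 0.0257).

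INSIG1 had other probe sets, which differed from this one. One rose in Jurkat by 0.36 (adjusted p over all probe sets 0.0253) and was at 0.19 in CEM (0.221). The other was at -0.05 in CEM and -0.31 in CUTL1 and was called in no line. Among single arrays, 5 ended the joint call for INSIG1 when left out, with adjusted p-values of up to 0.0696. The call in CEM was lost without DMSO replicate 1 or PD-0332991 replicate 1 of that line (up to 0.0840), and that in Jurkat without DMSO replicate 1 or either PD-0332991 array (up to 0.120).

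NSDHL, the dehydrogenase of the demethylation steps, read 8.09 and 8.0002 in CEM, 7.60 and 7.78 in CUTL1, 8.41 and 8.37 in DND41 and 8.04 and 8.03 in Jurkat with DMSO. The treated arrays read 8.01 and 7.95 in CEM, 7.73 and 7.71 in CUTL1, 7.99 and 8.04 in DND41 and 8.23 and 8.13 in Jurkat. DND41 started highest and its treated arrays came down to the level of CEM. NSDHL fell in DND41 by 0.37 (SE 0.074, adjusted p = 0.00352), and was at -0.06 in CEM, 0.02 in CUTL1 and 0.14 in Jurkat. The change in DND41 was below that in CUTL1 by 0.40 (SE 0.10, adjusted p = 0.0434) and below that in Jurkat by 0.52 (SE 0.10, adjusted p = 0.0147). A second NSDHL probe set was at -0.05 in DND41 and was called in no line. The joint call was lost when any 1 of 7 arrays was left out, with adjusted p-values of up to 0.114.

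HMGCS1 and DHCR7, the last reductase before cholesterol, also fell in DND41, though their joint tests stood at adjusted p-values of 0.0525 and 0.0521. HMGCS1 was 10.10 and 10.04 in DND41 with DMSO and 9.61 and 9.74 with the drug, a fall of 0.39 (SE 0.107, adjusted p = 0.0188). It was at 0.17 in CUTL1 and 0.22 in Jurkat, neither called. The change in DND41 lay below that in CUTL1 by 0.56 (SE 0.15, adjusted p = 0.0481) and below that in Jurkat by 0.61 (SE 0.15, adjusted p = 0.0310). The second HMGCS1 probe set fell by 0.40 in DND41 too, but its change there did not differ from that in CUTL1 at the threshold (0.27, adjusted p over all probe sets 0.315).

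DHCR7 was 8.72 and 8.63 in DND41 with DMSO and 8.35 and 8.30 with PD-0332991, a fall of 0.35 (SE 0.080, adjusted p = 0.00740). The change was 0.50 lower than in CUTL1 (SE 0.11, adjusted p = 0.0233), where DHCR7 was at 0.15. Neither was seen on the second DHCR7 probe set, with a mean of 7.46 beside 8.10, which was at 0.08 in DND41 (adjusted p over all probe sets 0.645) and 0.0036 in CUTL1. The calls in DND41 were lost without DMSO replicate 1 for DHCR7 (adjusted p = 0.0637), and without either DMSO array or PD-0332991 replicate 1 for HMGCS1 (adjusted p of up to 0.116). On the probe sets used, sterol enzymes called lower in DND41 alone among the lines were thus HMGCS1, NSDHL and DHCR7. Of these HMGCS1 alone was also called there on its second probe set. HMGCS1, NSDHL and DHCR7 all had their highest DMSO mean in that line, though for DHCR7 it was not told apart from Jurkat. The same DMSO arrays enter both this level and the fall, so they are not independent. DND41 also had the highest DMSO mean for 19 of 30 members.

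LSS, the cyclase that makes lanosterol, read 8.99 and 9.01 in CEM, 8.32 and 8.41 in CUTL1, 9.61 and 9.48 in DND41 and 9.56 and 9.56 in Jurkat with DMSO. In PD-0332991 the readings were 8.95 and 8.94 in CEM, 8.63 and 8.82 in CUTL1, 9.65 and 9.67 in DND41 and 9.48 and 9.51 in Jurkat. CUTL1 started lowest and rose by 0.36 (SE 0.075, adjusted p = 0.00388), and the other lines lay between -0.07 and 0.12, none called. The same DMSO arrays enter both the start and the rise of LSS, so they are not independent. The change in CUTL1 exceeded that in CEM by 0.42 (SE 0.11, adjusted p = 0.0468). The joint call (adjusted p = 0.0492) was lost when any 1 of 14 arrays was left out, with adjusted p-values of up to 0.141, and the rise in CUTL1 without PD-0332991 replicate 2 of that line (0.0503). Neither of the other LSS probe sets, both dim, was called.

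EBP fell in every line but by different amounts: 0.97 in CUTL1 (SE 0.065), 0.83 in CEM, 0.82 in Jurkat and 0.46 in DND41. The fall in DND41 was smaller than in CUTL1 by 0.52 (SE 0.09, adjusted p = 0.00778), than in CEM by 0.37 (adjusted p = 0.0334) and than in Jurkat by 0.36 (adjusted p = 0.0343). The second EBP probe set fell by 0.71 in DND41, close to its 0.70 in CEM. A dimmer one fell by 0.49 in DND41 (adjusted p over all probe sets 0.126), between 0.22 in CEM and 1.11 in CUTL1. The dimmest was called in no line. A fall that was smallest in DND41 was thus seen on the probe set used alone. The joint call was lost when any 1 of 4 arrays was left out, with adjusted p-values of up to 0.0762.

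For ABCA1, the change in CEM minus that in CUTL1 was -1.16 (SE 0.29, adjusted p = 0.0442), a comparison with a line in which all 4 arrays were below the dim level. Its joint call (adjusted p = 0.0467) was lost when any 1 of 13 arrays was left out, with adjusted p-values of up to 0.105. All 5 joint calls were lost without either DND41 DMSO array. Without DND41 PD-0332991 replicate 1 or Jurkat PD-0332991 replicate 2 the joint test called 1 member, and without CEM DMSO replicate 1, Jurkat PD-0332991 replicate 1 or either CUTL1 PD-0332991 array it called 2. It called 3 without CEM DMSO replicate 2, CUTL1 DMSO replicate 1 or Jurkat DMSO replicate 1.

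**Figure D3:**
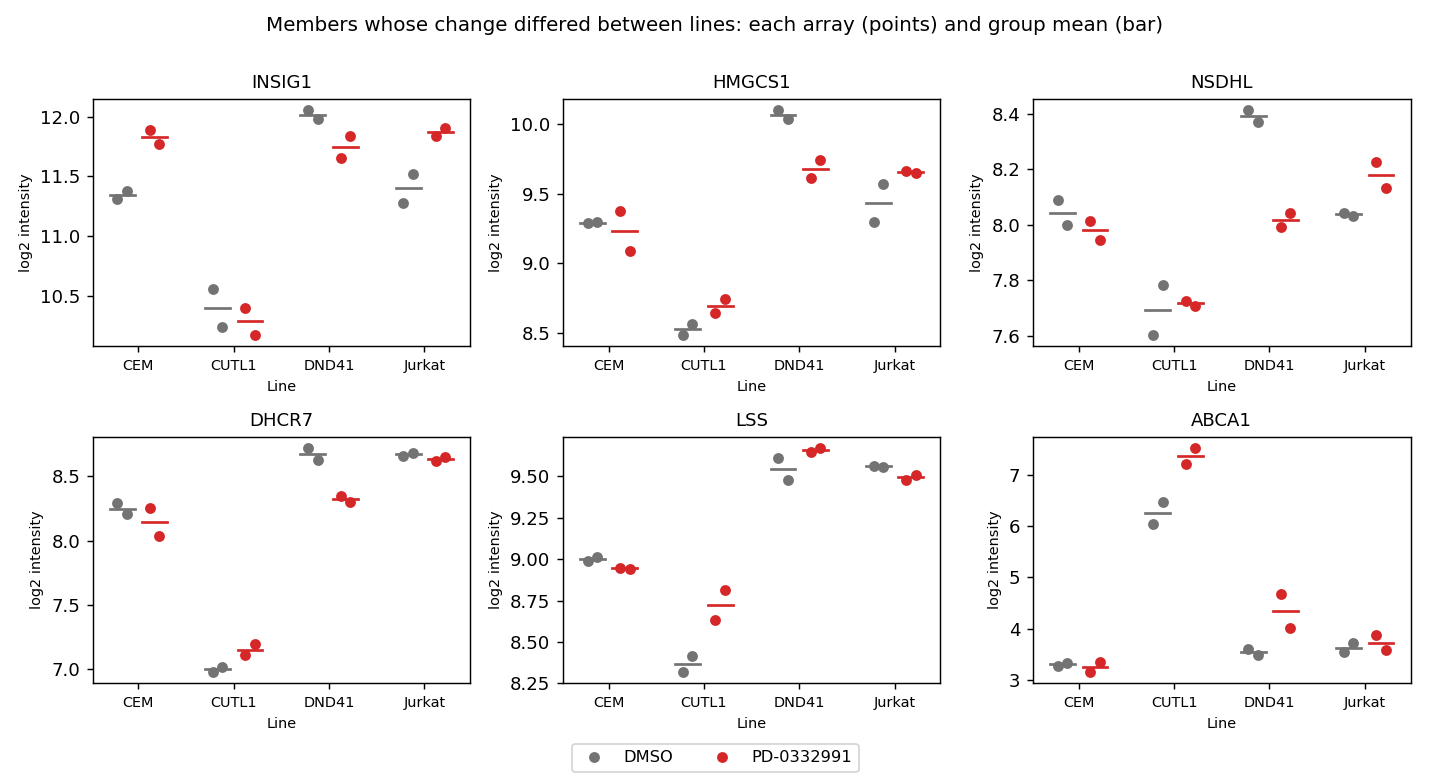
Log2 intensity (vertical axis, a separate scale for each gene) of 6 members in the 4 lines, with grey points for DMSO arrays, red points for PD-0332991 arrays and bars for the group means. INSIG1 rises in CEM and Jurkat, HMGCS1, NSDHL and DHCR7 fall in DND41 on the probe sets drawn, LSS rises in CUTL1 and ABCA1 rises from a measurable level in CUTL1; HMGCS1 and DHCR7 were called between pairs of lines but not in the joint test.

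The promoters of NSDHL and INSIG1, sterol genes whose change differed between lines, are shown for the same window and build, on the + strand, with CCAAT and ATTGG in capitals.
NSDHL, chrX:152830813-152831062: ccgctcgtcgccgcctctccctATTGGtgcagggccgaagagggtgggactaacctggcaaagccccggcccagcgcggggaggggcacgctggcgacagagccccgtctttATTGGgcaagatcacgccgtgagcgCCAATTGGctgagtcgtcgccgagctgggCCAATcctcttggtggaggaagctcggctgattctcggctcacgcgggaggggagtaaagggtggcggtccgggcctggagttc
INSIG1, chr7:155297628-155297877: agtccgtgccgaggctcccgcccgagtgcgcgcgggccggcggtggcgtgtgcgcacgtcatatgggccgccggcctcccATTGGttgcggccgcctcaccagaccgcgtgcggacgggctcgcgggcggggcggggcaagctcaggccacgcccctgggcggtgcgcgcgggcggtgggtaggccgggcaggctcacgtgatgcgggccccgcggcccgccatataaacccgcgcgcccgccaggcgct
NSDHL holds 5 boxes, of which 1 pair shares bases (CCAATTGG reads as a box on both strands), and INSIG1 holds 1.

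Without the drug the lines already differed in these genes. The joint test of the DMSO levels called 28 of 30 members, all but MVK and MVD, beside 71.2% of all genes. CUTL1 had the lowest mean for 24 of 30 members, beside 25.9% of all genes, and for 16 of the 17 sterol enzymes, EBP being the exception. DND41 had the highest mean for 19 of 30 members, beside 21.6%. The members CUTL1 did not have lowest were EBP (DND41), ACLY, LPIN1 and ABCA1 (CEM, for ABCA1 among dim values), and SREBF2 and ELOVL6 (Jurkat).

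Between pairs of lines, 23 members were lower in CUTL1 than in DND41 and 1 was higher, where 23.5% and 20.6% of all genes were. Against Jurkat 23 were lower in CUTL1 and 2 higher, beside 27.9% and 21.6%. Against CEM 21 members were higher in CEM and 3 lower, beside 21.7% each way. ABCA1 is among the members higher in CUTL1 in each of these pairs, and it entered the test through that line alone. DND41 was above CEM for 18 members and below for 3 (24.2% and 21.5%), and above Jurkat for 14 and below for 3 (21.4% and 25.5%). CEM was above Jurkat for 6 members and below for 11 (20.7% and 27.4%).

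DHCR7 had the widest range of the sterol enzymes: its DMSO mean was 6.998 in CUTL1, 8.25 in CEM, 8.67 in Jurkat and 8.67 in DND41 (2 arrays each). CUTL1 was 1.25 below CEM (SE 0.080, adjusted p = 1.24e-07), CEM was 0.42 below Jurkat (adjusted p = 8.97e-04), and Jurkat and DND41 did not differ beyond their spread (adjusted p = 0.971). SC5D stood at 7.82 in CUTL1, 9.04 in Jurkat, 9.07 in CEM and 9.42 in DND41, where Jurkat and CEM were not told apart (adjusted p = 0.678). HMGCS1 stood at 8.53 in CUTL1, 9.29 in CEM, 9.44 in Jurkat and 10.07 in DND41, and CEM and Jurkat again were not told apart (adjusted p = 0.306). INSIG1 followed the same order, with 10.40, 11.34, 11.40 and 12.01. For FDPS the CUTL1 mean was 0.98 below CEM (SE 0.079, adjusted p = 1.06e-06), and the other 3 lines were not told apart. SQLE was ordered CUTL1, CEM, Jurkat and DND41, at 9.85, 10.37, 10.77 and 11.12, with every neighbouring pair called (adjusted p of 0.00269 or less).

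Among the fatty acid genes SCD stood at 10.01 in CUTL1, 10.94 in CEM, 11.22 in Jurkat and 11.44 in DND41, every neighbour called. ELOVL6 had the widest range of this group, 2.70 between Jurkat (6.65) and DND41 (9.36) (SE 0.166, adjusted p = 7.94e-08), with CUTL1 at 7.49 and CEM at 8.35. ACLY was lowest in CEM at 11.12, with 11.41 in CUTL1, 11.77 in Jurkat and 11.81 in DND41. LPIN1 was lowest in CEM at 8.92, while Jurkat, DND41 and CUTL1, at 9.40, 9.31 and 9.51, were not told apart.

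Among the pumps ABCA1 was highest in CUTL1, at 6.26. In the other lines it was below the dim level, which leaves them no order. ABCA1 entered the test through CUTL1 alone, so its place as highest there follows from that filter and is not read as a result. ABCG1 was lowest in CUTL1 at 5.88, with 6.78 in CEM, 7.79 in Jurkat and 8.16 in DND41, the last pair not told apart (adjusted p = 0.0617). SREBF1 was lowest in CUTL1 at 7.07 and highest in CEM at 7.61, a difference of 0.54 (SE 0.086, adjusted p = 3.07e-04), and SREBF2 spanned 0.45 between Jurkat and DND41 (SE 0.099, adjusted p = 0.00265).

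**Figure D4:**
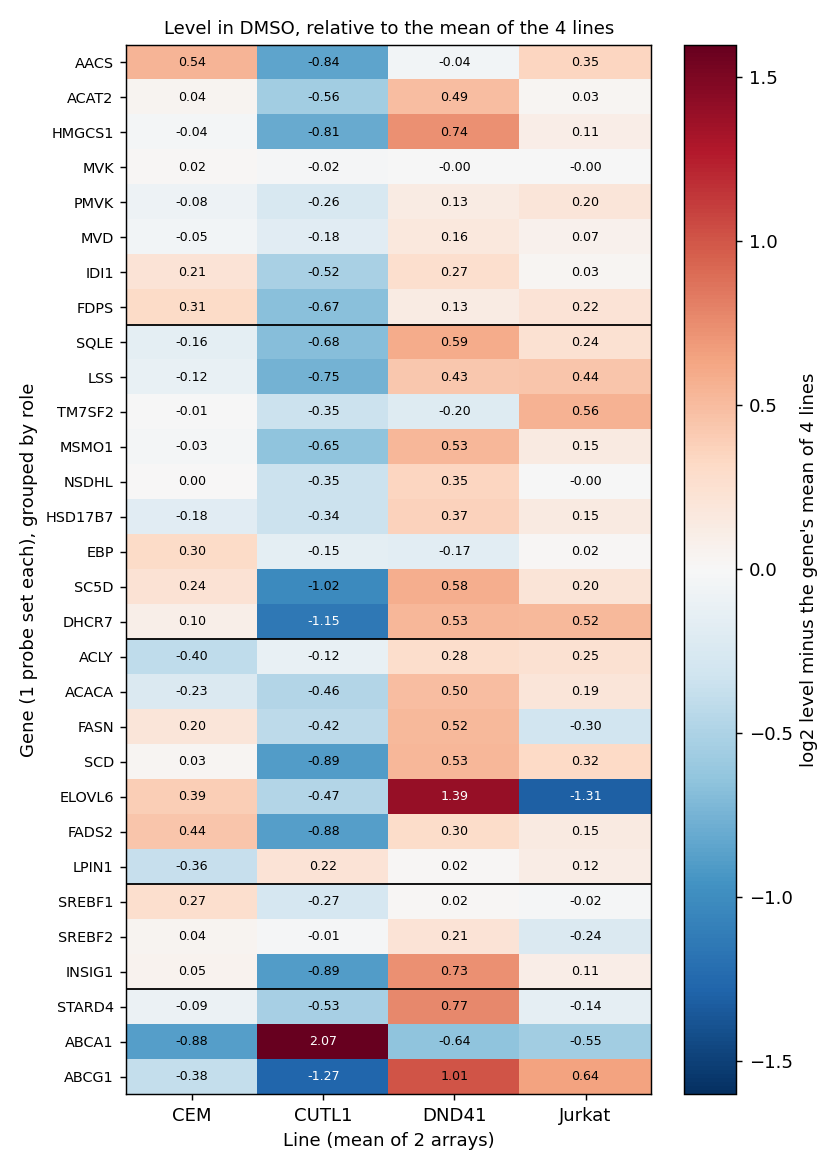
Level with DMSO of the 30 measured members (rows, grouped by role) in CEM, CUTL1, DND41 and Jurkat (columns, means of 2 arrays), as the log2 difference from the gene's mean of the 4 lines. The CUTL1 column is blue for nearly all sterol enzymes and the DND41 column mostly red. LPIN1 and ABCA1, which entered the test through CUTL1 alone, have their highest level in CUTL1. ELOVL6 spans 2.70 between Jurkat and DND41.

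Of 39 other genes of these pathways that were tested, a list of uptake, isoprenoid, SREBP, LXR, fatty acid and glyceride genes, 9 rose and 13 fell in the average, and 17 did not pass. The background was 26.7% and 20.0%. The largest falls were those of TMEM97, a sterol-regulated membrane protein that binds NPC1, of PDSS1, which makes the ubiquinone tail from farnesyl diphosphate, and of DGAT2, which makes triglycerides. TMEM97 fell by 1.26 (SE 0.034, 2.40-fold, adjusted p = 6.74e-11), with changes of -1.54 in CEM, -1.63 in CUTL1, -0.63 in DND41 and -1.24 in Jurkat. The joint test separated these falls (adjusted p = 3.43e-04), and the smallest was in DND41. PDSS1 fell by 0.58 (SE 0.029, adjusted p = 1.96e-08), from 0.33 in CUTL1 to 0.73 in Jurkat. DGAT2 fell by 0.44 (SE 0.105, adjusted p = 0.00439), with CEM at 0.04.

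The largest rises were those of MLYCD, which breaks down malonyl-CoA and so counters fatty acid synthesis, LIPA, the lysosomal lipase that frees cholesterol and fatty acids from lipoproteins, and ACSS2, which makes acetyl-CoA from acetate. MLYCD rose by 0.48 (SE 0.041, adjusted p = 1.82e-06), between 0.31 in DND41 and 0.65 in CUTL1, with every line called. LIPA rose by 0.42 (SE 0.031, adjusted p = 5.36e-07), between 0.36 in CEM and 0.50 in CUTL1, with every line called. ACSS2 rose by 0.26 (SE 0.055, adjusted p = 0.00215), with 0.59 in CEM called and the other lines not. The SREBP partners SCAP and INSIG2 were not called in the average (0.04 and 0.10), and MBTPS1, the protease that first cuts SREBP, rose by 0.14 (SE 0.029). These last genes were named after their values were seen.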

How the data were processed

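Gene expression was measured on 16 arrays of 4 cell lines. Per the labels' protocols, total RNA was taken with a Qiagen kit and 5 ng was amplified and biotin-labelled with Nugen Ovation kits. The authors' values were made with RMA, per the submitters' processing notes; version, probe definition and genome build: not given in the sources used here. What was deposited is a linear intensity for each probe set (4.42 to 26097), where the written design had assumed log2. The values were therefore put on the log2 scale as they stood, without a pseudocount or rescaling. Precision is limited by the number of arrays.

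Of 54675 probe sets, 41097 had 1 gene symbol in the platform annotation, 1801 several and 11777 none; 41043 were matched to a RefSeq table (GRCh38.p14), with 0 symbols changed. Each gene was read from its probe set with the highest mean. A gene was dim, and not tested, where no line had a mean as high as the median over all values (29.5, or 4.88 in log2); this left 13483 genes and set 6292 aside. Of the 30 measured members 21 had several such probe sets, and 14 were read from a probe set ending in _s_at and 2 (IDI1 and HSD17B7) from one ending in _x_at, kinds that can bind more than 1 transcript or gene.

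Group means were fitted with limma 3.58.1 in R 4.3.3 (lmFit, then eBayes; residual degrees of freedom 8, prior 3.32). Tests were two-sided, p-values were Benjamini-Hochberg adjusted over all 13483 genes, and an adjusted p under 0.05 was a call. The fit was tested on simulated data. The fit gave the drug effect per line and averaged over lines, how these effects differed between lines (F test), and how the DMSO levels did. Values in every array are given for members called in the average with 1 sign in all lines, for those called in the joint test and for the 3 largest called changes of each line, and the 3 largest rises and falls are named for the other pathway genes; further members are named because each one is accounted for. The members and the lists were chosen with earlier results of these data known. Same-numbered arrays of a line were not treated as pairs in the main fit. The correlation of their deviations was 0.0760 in CEM, 0.195 in CUTL1, -0.108 in DND41 and 0.105 in Jurkat. Whether they pair was not tested. Promoter windows are from RefSeq. Figures were drawn with matplotlib 3.10.9.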

Additional observations from a re-analysis of the deposited data

Results flagged for a closer look

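The change with PD-0332991 differed between the 4 lines for 5 members in the joint test, and these are given here as values of the probe sets used. An EBP fall that was smallest in DND41, and a called NSDHL fall in DND41, were not seen on any other probe set of these genes. The adjusted p of the joint test was 0.0169 for EBP, which fell in all lines and least in DND41, by 0.46 against 0.82 to 0.97. It was 0.0227 for INSIG1, which rose by 0.49 in CEM and 0.47 in Jurkat and was at -0.11 in CUTL1 and -0.27 in DND41. It was 0.0319 for NSDHL, which fell by 0.37 in DND41, while the other lines lay between -0.06 and 0.14. For ABCA1 it was 0.0467, with a rise of 1.11 in CUTL1 against -0.05 in CEM, where all arrays were dim. For LSS it was 0.0492, with a rise of 0.36 in CUTL1 against -0.06 in CEM. Each of these 5 calls was lost without either DND41 DMSO array. No group had enough arrays to look for outlying samples.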

How the results depend on the processing

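ACAT2, EBP, FDPS, AACS, TM7SF2, LPIN1 and ABCG1 kept their direction and call in the average in each setting tried that could read them. The main counts in the average were 6 higher and 9 lower. With 1 array left out at a time (a lone array then assumed to vary like the other groups), the average gave 6 to 8 members higher and 5 to 9 lower, CEM 3 to 5 and 4 to 5, CUTL1 3 to 8 and 3 to 5, DND41 2 to 4 and 5 to 9, Jurkat 2 to 6 and 3 to 4. The joint test then called 0 to 5, the DMSO test 27 to 28, and the other pathway genes gave 9 to 11 higher and 12 to 13 lower. Quantile normalization left 5 lower in the average and 3 in CUTL1, and cyclic loess 3 in the joint test. With probe sets averaged per gene, 5 were higher in CUTL1. With no filter on dim genes the joint test called 2 and CUTL1 had 3 lower. With each line as 1 replicate, 4 members fell in the average, and of the other pathway genes 2 rose and 4 fell. A fit to the CUTL1 arrays alone gave 3 higher and 3 lower, and 1 to the DND41 arrays alone 4 lower. Leaving out the line CEM gave 5 lower in the average, and leaving out CUTL1 gave 8 other pathway genes lower. Without probe sets ending in _x_at or _s_at, from which 16 members were read, members with no other probe set bright enough dropped out. The counts of this setting are therefore out of fewer members and cannot be set directly beside the main ones. They were 3 higher and 4 lower in the average, 3 and 3 in CEM, 3 and 2 in CUTL1, 2 higher in DND41 and 3 higher in Jurkat. The joint test called 3, the DMSO test 18, and 8 other pathway genes were lower. The reversals came from that setting, which reads another probe set: ABCG1 in CUTL1 was -0.15, FADS2 in DND41 -0.32 (adjusted p = 0.0206), and IDI1 0.16 in CEM and 0.088 in DND41. With the replicate number as a block within each line, 3 members fell in CUTL1 and the joint test called 2. For all these moves the cause was not tested beyond what the settings themselves change.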
